A study of Homo sapiens with 9 samples.

Results

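The comparison of HT-29 cells grown in 10 µM 5-Aza with HT-29 cells grown in 5 µM 5-Aza rested on 6 of the 9 arrays of the study, the 3 titled for each of these doses. All genes of the array were considered, each read from its brightest probe set on average over the 9 arrays, and 11756 of 19775 genes were bright enough to be tested. HT-29 is an established human colon adenocarcinoma line, and 5-Aza here is 5-aza-deoxycytidine (decitabine). Per the study's methods, replicate cultures received DMSO alone (the vehicle, 0 µM), 5 µM or 10 µM for 5 days, with 1 Affymetrix U133 Plus 2.0 array run on the RNA of every culture. The cells are 1 line and carry no engineered allele, so the 3 arrays of a dose are separate cultures of the same cells, and the vehicle arrays entered the fit only for the estimate of the spread and as a reference level.

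5-Aza is built into DNA during replication, where it traps the DNA methyltransferases, so that methylation of cytosine at CG sites is lost as cells divide and trapped enzyme is left on the DNA. Many genes used in germ cells have promoters rich in CG sites, and in somatic cells methylation of these promoters holds them silent. Genes of the G2 and mitotic programme often carry CCAAT boxes and the cell cycle homology region (CHR) in their promoters, whereas the G1/S programme of replication genes is under separate, E2F-type control.

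A gene was called lower or higher when limma gave an adjusted p of at most 0.05 (Benjamini-Hochberg over all 11756 genes) and the group means of log2 signal differed by more than 1 unit (2-fold). By this measure 245 genes fell between 5 and 10 µM, which is 2.08% of the genes tested, and 31 rose (0.264%), so that 276 genes were called in all (2.35%) and 88.8% of them were lower at the higher dose. The median change of the 245 genes was -1.41 on the log2 scale (2.66-fold, median SE 0.237), 51 had a fitted fall of more than 4-fold and 25 of more than 8-fold. With signals below the array median raised to that median, these numbers were 15 and 2, so most of the deep fitted falls rest on dim signals at 10 µM. The 31 genes that rose had a median change of 1.11 (2.16-fold, median SE 0.217), and 1 of them rose by more than 4-fold. The median over all tested genes was -0.01. Without the fold threshold, 1049 genes (8.92%) were lower and 815 (6.93%) higher, and 56.3% of these genes were lower. The log2 difference was below 0 for 51.0% of all tested genes. The 3 arrays at 10 µM all lay below the 3 at 5 µM for 18.6% of tested genes and all above for 17.3%.

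**Figure D1:**
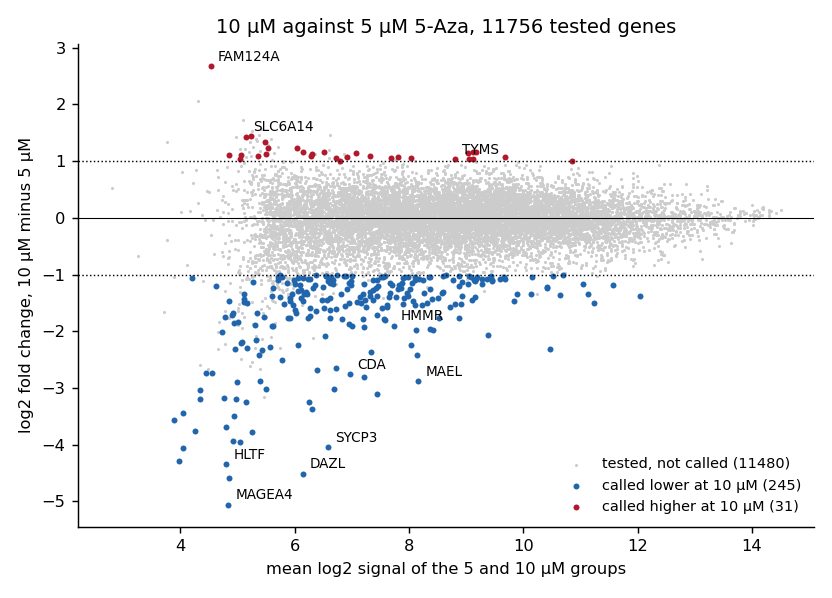
Log2 fold change of 10 µM minus 5 µM 5-Aza (y axis) against the mean log2 signal of the 2 groups (x axis) for the 11756 tested genes, 1 point each, with lower calls in blue, higher calls in red and dotted lines at 2-fold. The 245 lower genes spread down to -5.06, with the deepest falls at low mean signal, whereas 30 of the 31 higher genes lie under 2 log2 units.

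Against the vehicle cells, the 2 doses stood as follows in the same fit, with the caution that the comparisons share arrays. At 5 µM 1010 genes were called higher than at 0 µM (8.59%) and 155 lower (1.32%). At 10 µM 715 were called higher (6.08%) and 176 lower (1.5%). The median log2 level of the 245 genes that fell between the doses was 5.8 in the vehicle cells, 7.87 at 5 µM and 6.2 at 10 µM. The floor, below which a signal was treated as dim, was the median signal on that array. Signals under it on all 3 arrays of a dose were seen for 82 of the 245 genes at 0 µM, 2 at 5 µM and 62 at 10 µM. The 31 genes that rose had median levels of 6.51, 6.2 and 7.25 at 0, 5 and 10 µM. Of the tested genes, 381 passed the filter only through their level at 5 µM and 118 only through their level at 10 µM. The filter itself asks that such genes be bright at that dose and not at the others, which favours a difference. They make up 78 of the 245 lower genes and 5 of the 31 higher genes, and these counts support nothing. For genes below the floor on all arrays of a dose, the fold is given as a bound, with dim signals raised to the floor.

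Before the genes, the arrays themselves differed with dose. The actin control probe sets have a 3′ and a 5′ member, whose log2 difference grows as the RNA template or its copying is less complete. It was 2.49, 2.59 and 2.69 at 5 µM and 2.84, 2.95 and 3.16 at 10 µM, with no overlap. The same difference for GAPDH was 0.31, 0.31 and 0.34 at 5 µM and 0.55, 0.47 and 0.7 at 10 µM. In both cases the exact two-sided permutation p was 0.1, the smallest that 3 against 3 arrays allow (adjusted p = 0.167 over 5 control measures). The 5′ control probe set of 18S rRNA read 11.77, 13.45 and 13.6 at 10 µM against 12.23 to 12.56 at 5 µM, so there replicates 2 and 3 at 10 µM stood apart from the first. The middle probe set read 12.41, 13.05 and 13.17 at 10 µM against 12.4 to 12.55. The 3′ probe set read 13.47, 13.51 and 13.69 at 10 µM against 12.74 to 12.96, with no overlap (exact permutation p = 0.1, adjusted p = 0.167). In the 3′ probe set replicate 1 at 10 µM did not stand apart. With the actin signal as a covariate in the limma fit, 12 of the 11756 genes were called lower and 0 higher. At an unadjusted p under 0.05 that fit left 893 genes lower and 595 higher, and the methods' t-test, with Benjamini-Hochberg adjustment, on the 6 arrays without the covariate, called 101 lower and 13 higher. Here and below, the latter test was run on the deposited values with the filter used here and not that of the study. Its counts are not those of the study, which reported far fewer genes from its own run. In the covariate fit all 245 lower and all 31 higher genes kept the sign of their change, with median changes of -1.21 (median SE 0.37) and 1.06 (median SE 0.335). These genes were picked for changes of more than 2-fold on the same arrays, which favoured the same sign, so the kept sign supports nothing. Without replicates 2 and 3 at 10 µM, which leaves 1 array at that dose, the median change over all tested genes was -0.001. The actin difference was higher at each dose than at the one before, with no overlap, so the covariate moved with dose, and its part in the results was not tested.

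**Figure D2:**
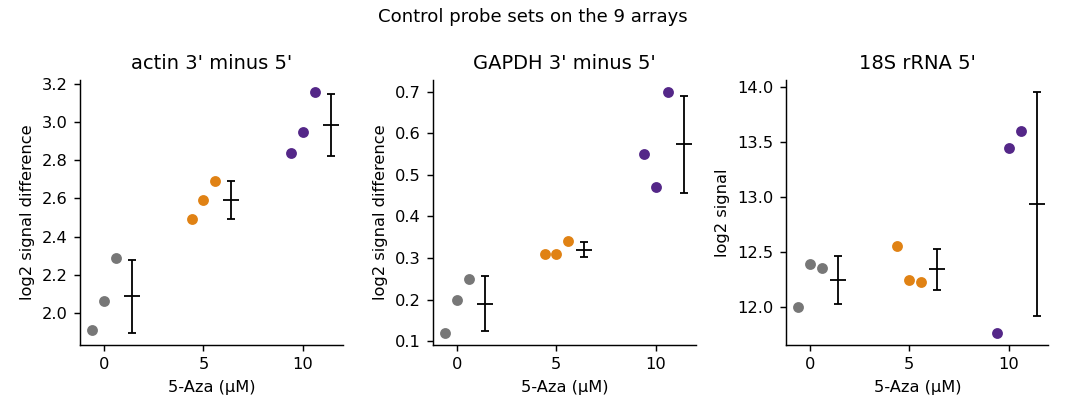
Control probe sets on the 9 arrays, 1 point per array with the group mean and SD beside them, against the 5-Aza dose (µM): the 3′ over 5′ difference (log2) for actin and for GAPDH, and the log2 signal of the 18S rRNA 5′ probe set. The actin difference rises from a mean of 2.59 at 5 µM to 2.98 at 10 µM with no overlap, and the 5′ probe set of 18S rRNA is spread from 11.77 to 13.6 at 10 µM.

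Leaving out 1 array at a time moved the number of lower genes between 138 and 343 and that of higher genes between 12 and 96. The lowest count of lower genes came without replicate 3 at 5 µM (138) and the highest count of higher genes without replicate 2 at 10 µM (96). Higher genes numbered 12 without replicate 3 at 10 µM and 18 without replicate 3 at 5 µM. Of 13 colon epithelial markers on the array, 11 were above the floor on all 6 arrays, and CDX1 and CDX2 were not. Markers of other cells above the floor on all arrays of a dose were 4 of 17 for hepatocytes, 4 of 16 for blood, 5 of 17 for fibroblasts and endothelium, 2 of 17 for muscle and 10 of 27 for neurons. The summed level of the neuronal markers was 11.7 to 11.75 at 5 µM and 11.09 to 11.31 at 10 µM, that of the hepatocyte markers 12.93 to 13.15 and 11.79 to 12.67, and that of the fibroblast and endothelial markers 10.22 to 10.42 and 9.36 to 9.74. That of the blood markers was higher at 10 µM (13.14 to 13.33 at 5 µM, 13.39 to 13.54 at 10 µM). This sum was mostly LYZ, which alone read 13.1 to 13.28 at 5 µM and 13.36 to 13.5 at 10 µM. Of the 5 blood markers tested, 3 had a negative difference and 2 a positive one, with a median of -0.23. The summed level of the muscle markers overlapped (8.62 to 8.88 and 8.59 to 8.92). The part of these markers in the results was not tested.

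Promoters are printed first for the 3 germ cell genes with the largest fitted changes, each below the floor on all arrays at 10 µM. They show how many CG sites, the sites that DNA methyltransferases modify, such promoters hold, although methylation was not measured here. They are followed by that of ADORA1, the largest rise with an entry in the promoter table. Sequences are those of RefSeq (GRCh38.p14), the 250 bases before the annotated start, 5′ to 3′ on the strand of the gene, with each CG in capitals. DAZL lies on the minus strand (chr3:16605424-16605673) with 28 CG sites, SLC25A31 on the plus strand (chr4:127730150-127730399) with 21, SYCP3 on the minus strand (chr12:101739463-101739712) with 19, and ADORA1 on the plus strand (chr1:203127476-203127725) with 12.
DAZL: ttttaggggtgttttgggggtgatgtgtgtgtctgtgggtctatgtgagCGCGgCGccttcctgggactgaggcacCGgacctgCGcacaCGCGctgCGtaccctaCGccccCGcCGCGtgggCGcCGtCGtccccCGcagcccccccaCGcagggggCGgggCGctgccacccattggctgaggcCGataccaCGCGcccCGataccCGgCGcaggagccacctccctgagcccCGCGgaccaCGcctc
SLC25A31: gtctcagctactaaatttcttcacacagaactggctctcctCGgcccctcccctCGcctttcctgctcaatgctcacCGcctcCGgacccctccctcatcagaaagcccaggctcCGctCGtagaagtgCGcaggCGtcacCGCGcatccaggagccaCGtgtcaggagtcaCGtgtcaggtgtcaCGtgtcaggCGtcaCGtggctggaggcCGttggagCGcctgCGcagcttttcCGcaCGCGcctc
SYCP3: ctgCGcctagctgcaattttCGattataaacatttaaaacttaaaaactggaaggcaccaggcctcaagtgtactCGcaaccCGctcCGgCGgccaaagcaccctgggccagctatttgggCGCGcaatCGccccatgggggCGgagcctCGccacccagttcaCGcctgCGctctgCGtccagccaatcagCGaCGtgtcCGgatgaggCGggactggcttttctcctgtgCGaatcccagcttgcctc
ADORA1: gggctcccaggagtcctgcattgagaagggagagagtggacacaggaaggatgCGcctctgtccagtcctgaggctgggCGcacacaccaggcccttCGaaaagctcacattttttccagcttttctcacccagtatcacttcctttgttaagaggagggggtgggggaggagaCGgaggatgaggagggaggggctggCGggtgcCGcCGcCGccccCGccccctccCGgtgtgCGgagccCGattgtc

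The median number of CG sites in this window was 11 over all 27305 promoters and 21 over the 9613 tested genes with a promoter in the table. It was 17 for the 187 matched genes that fell, 17 for the 25 matched genes that rose, and 19.5 for the 46 matched germ cell genes on the array. The medians of the genes called in either direction were thus below that of the tested genes.

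Of 53 germ cell and meiosis genes on the array, 17 were tested, and 9 of these passed only through 5 µM. Of the 17, 10 fell and 0 rose (against 2.08% and 0.264% of all tested genes). A negative difference was seen for 13 (against 51.0%), and 13 were lower on all 3 arrays at 10 µM than on any at 5 µM (against 18.6%). The median change of the 17 was -2.24, or -0.98 with dim signals raised to the floor, against -0.01 over all tested genes. Among all genes that passed only through 5 µM, 78 of 381 were called lower. DAZL, SYCP3, SLC25A31 and HORMAD1 are such genes, so the filter favoured their falls. DAZL, an RNA-binding protein of germ cells, read 8.39, 8.38 and 8.41 at 5 µM and 3.96, 3.81 and 3.89 at 10 µM. The arrays of a dose lay close together and the doses far apart, with the vehicle at 0.94 ± 0.40 (SD, n = 3 arrays). At 10 µM DAZL was below the floor, so it was at least 7.84-fold lower (log2 change -4.51, SE 0.18, limma adjusted p = 7.08e-06). SYCP3, a protein of the axis of meiotic chromosomes, read 8.6, 8.71 and 8.49 at 5 µM and 4.49, 4.49 and 4.7 at 10 µM. It was at least 9.05-fold lower (log2 change -4.04, SE 0.12, adjusted p = 1.3e-06), and its 10 µM arrays lay near the vehicle mean of 4.77. These 2 genes were also called with the actin covariate.

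Other members were more scattered or stayed higher at 10 µM. SLC25A31, the germ cell form of the ADP/ATP carrier of mitochondria, read 6.05, 6.3 and 5.86 at 5 µM and 3.46, 0.26 and 2.32 at 10 µM (at least 1.56-fold lower, adjusted p = 0.0411). HORMAD1, a meiotic chromosome protein, read 6.29, 6.97 and 7.41 against 4.6, 3.07 and 1.2 (at least 2.77-fold lower, adjusted p = 0.032). Both calls were fragile: that of SLC25A31 ended without any 1 of 6 arrays (0 µM replicate 1, 10 µM replicates 2 and 3, and each at 5 µM), with an adjusted p of up to 0.115, and that of HORMAD1 without any 1 of 5 (10 µM replicates 2 and 3, and each at 5 µM), up to 0.111. MAEL, a piRNA pathway protein chosen after its values were seen, read 9.44, 9.67 and 9.67 at 5 µM and 6.56, 6.93 and 6.67 at 10 µM, against a vehicle mean of 2.3 ± 1.34 (SD, n = 3 arrays). MAEL fell by 2.88 log2 units (SE 0.54, adjusted p = 0.0121) and stayed above the floor at 10 µM. The call of MAEL ended without replicate 3 at 5 µM (adjusted p = 0.0521). The number of germ cell genes called was 3 without replicate 3 at 5 µM and 6 without replicate 1 at 5 µM or replicate 3 at 10 µM. It was 2 with the actin covariate. Without replicates 2 and 3 at 10 µM, which leaves 1 array at that dose, the median change of the tested germ cell genes was -1.75.

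MAGE genes encode cancer-testis antigens and lie on the X chromosome. Of 33 cancer-testis genes on the array, 6 were tested, 4 of them only through 5 µM, and 2 fell, against 2.08% of all tested genes. MAGEA4 read 7.31, 7.51 and 7.28 at 5 µM and 3.15, 1.77 and 2.0 at 10 µM, below the floor, and was at least 3.85-fold lower (adjusted p = 0.000527). Its vehicle mean was 1.23 ± 0.57 (SD, n = 3 arrays), and it passed the filter only through 5 µM. MAGEA6 read 9.74, 9.89 and 9.84 at 5 µM and 8.07, 8.75 and 8.29 at 10 µM, a fall of 1.45 log2 units (SE 0.16, adjusted p = 0.0024) to near the vehicle mean of 8.59. Close copies of MAGE genes can share probes, so the MAGEA6 signal may not be of that gene alone. TFDP3, a testis-expressed relative of the E2F partner proteins, read 7.04, 7.03 and 7.36 against 1.0, 1.48 and 5.19 (at least 3.3-fold lower, adjusted p = 0.029). Like MAGEA4, it passed the filter only through 5 µM. Replicate 3 at 10 µM stood apart for TFDP3, and its call ended without any 1 of 5 arrays (10 µM replicates 1 and 2, and each at 5 µM; adjusted p up to 0.0981).

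**Figure D3:**
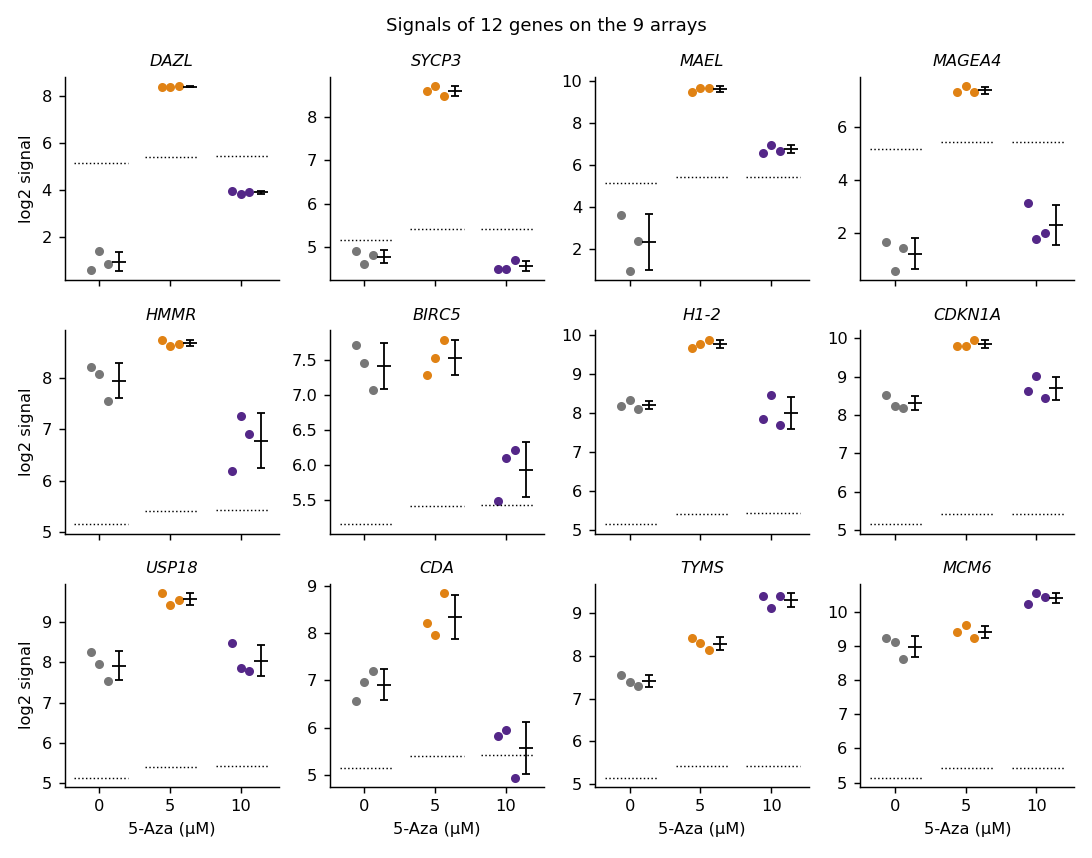
Log2 signal (y axis) of 12 genes on the 9 arrays against the 5-Aza dose in µM (x axis), 1 point per array, with group means and SD bars beside the points and dotted lines at the mean array median (the floor) of each dose. DAZL and SYCP3 are high at 5 µM only, whereas TYMS steps up at each dose, with means of 7.41, 8.29 and 9.32.

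The list of G2 and mitosis genes held 21 calls, all lower. Of 49 on the array, 47 were tested, only 1 of them through 5 µM alone. Of the 47, 21 were called lower (against 2.08% of all tested genes) and 0 higher, and 34 were lower by adjusted p alone (against 8.92%). A negative difference was seen for 46 (against 51.0%), and 41 were lower without overlap between doses (against 18.6%). Their median change was -1.0 (range -1.9 to 0.0), and the median level of the list was 7.47 at 0 µM, 8.34 at 5 µM and 7.18 at 10 µM. HMMR, a spindle protein, read 8.75, 8.63 and 8.66 at 5 µM and 6.19, 7.25 and 6.9 at 10 µM, a fall of 1.9 (SE 0.26, adjusted p = 0.00478), with a vehicle mean of 7.95. BIRC5 (survivin), a subunit of the chromosomal passenger complex, read 7.28, 7.53 and 7.79 against 5.48, 6.09 and 6.21, a fall of 1.61 (SE 0.24, adjusted p = 0.00546), with 1 of the 3 arrays at 10 µM below the floor. NEK2, a centrosome kinase, read 8.32, 8.35 and 8.45 against 6.76, 7.22 and 6.56, a fall of 1.53 (adjusted p = 0.00585). For each of these 3 genes, all arrays at 10 µM lay below the vehicle arrays too. TPX2, a spindle assembly factor, read 8.84, 8.93 and 9.2 against 7.93, 7.26 and 7.18, a fall of 1.53 (adjusted p = 0.00597). CCNB2, a cyclin of mitotic entry chosen after its values were seen, read 9.51, 9.62 and 9.89 against 7.92, 8.46 and 8.09, a fall of 1.52 (SE 0.18, adjusted p = 0.00291), and its vehicle mean was 9.97. FOXM1, a transcription factor of the G2 programme and likewise chosen afterwards, fell by 1.46 (adjusted p = 0.00348), with 2 of 3 arrays at 10 µM below the floor. None of these 6 calls ended when any 1 array was left out, and the list kept 14 to 22 calls. With the actin covariate 0 members were called by limma (22 at an unadjusted p under 0.05, all lower), the methods' t-test without the covariate called 13, and the covariate median was -0.64. Without replicates 2 and 3 at 10 µM, which leaves 1 array at that dose, the median was -0.98. Whether fewer cells in G2 and mitosis or less RNA of these genes per cell lay behind the lower signals cannot be told apart in such bulk RNA.

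The promoters of HMMR (chr5:163460382-163460631, plus strand) and CCNB2 (chr15:59104896-59105145, plus strand) are given as examples from this group that hold both motifs, again 250 bases before the start from RefSeq (GRCh38.p14). Capitals mark CCAAT and the CHR cores TTTGAA and TTTAAA on either strand.
HMMR: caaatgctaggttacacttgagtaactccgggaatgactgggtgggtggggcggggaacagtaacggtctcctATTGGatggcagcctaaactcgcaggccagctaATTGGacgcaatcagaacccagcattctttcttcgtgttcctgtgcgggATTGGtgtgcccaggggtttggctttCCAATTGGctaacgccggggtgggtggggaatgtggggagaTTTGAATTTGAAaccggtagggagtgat
CCNB2: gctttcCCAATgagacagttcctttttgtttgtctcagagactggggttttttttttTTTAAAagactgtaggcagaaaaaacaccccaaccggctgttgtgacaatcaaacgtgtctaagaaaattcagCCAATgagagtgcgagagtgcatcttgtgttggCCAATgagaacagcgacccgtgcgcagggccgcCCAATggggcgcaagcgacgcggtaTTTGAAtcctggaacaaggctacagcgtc

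A CHR core (TTTGAA or TTTAAA, both strands searched) was found in 64.3% of the 42 G2/M promoters in the table and in 73.7% of the 19 of them whose gene fell, against 14.1% of tested genes and 22.1% of all promoters. At least 1 CCAAT was found in 73.8% of the G2/M promoters, 35.1% of those of tested genes and 33.0% of all, and more than 1 in 45.2%, 12.8% and 10.0%. Among the 37 G1/S promoters in the table, 10.8% held a CHR core, whereas 73.0% held TCCCGC, a core of E2F sites, against 36.8% of tested genes and 23.5% of all. Over the 187 matched genes that fell, 46.5% held CCAAT and 21.9% a CHR core. These are matches of letters in a window, not shown sites of binding.

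Genes of G1/S and DNA replication held 1 call, higher, and their difference from the G2/M list was not tested. Of 41 on the array, 39 were tested, 0 were called lower and 1 higher (against 0.264% of all tested genes). By adjusted p alone, 2 were lower and 9 higher (against 8.92% and 6.93% of all tested genes). A positive difference was seen for 27 and a negative one for 12 (negative in 51.0% of all tested genes). Without overlap, 17 lay above and 4 below (against 17.3% and 18.6%). The median change was 0.22, and the median level was 6.98 at 0 µM, 7.95 at 5 µM and 7.98 at 10 µM. TYMS, thymidylate synthase, read 8.43, 8.3 and 8.14 at 5 µM and 9.41, 9.12 and 9.41 at 10 µM, a rise of 1.03 (SE 0.13, adjusted p = 0.00329) from a vehicle mean of 7.41. TYMS sat at the fold threshold, since its change ranged from 0.95 to 1.12 when 1 array was left out and its call ended without replicate 1 or 3 at 10 µM or replicate 3 at 5 µM. MCM6, a subunit of the replicative helicase chosen after its values were seen, read 9.4, 9.6 and 9.23 against 10.24, 10.54 and 10.42, a difference of 0.99 (SE 0.17, adjusted p = 0.00948) that missed the fold threshold. CDC6, a loader of that helicase also chosen afterwards, read 8.77, 8.48 and 8.9 against 7.59, 7.89 and 7.78, a difference of -0.96 (adjusted p = 0.00502). With the actin covariate no member was called, 3 were lower and 9 higher at an unadjusted p under 0.05, and the median was 0.23. Of 22 DNA repair genes tested, limma and the methods' t-test each called 0. At an unadjusted limma p under 0.05, 0 were lower and 4 higher, against 2021 lower and 1796 higher of all 11756 tested genes. ATR, the replication stress kinase, differed by 0.72 (adjusted p = 0.00779).

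**Figure D4:**
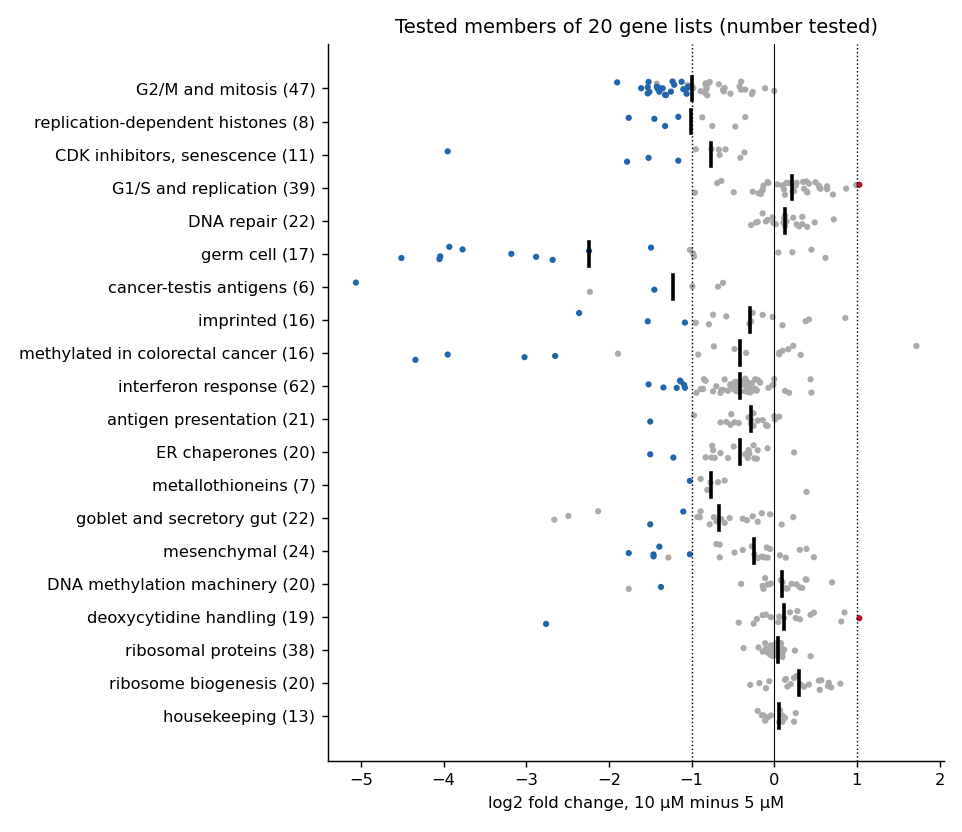
Log2 fold change of 10 µM minus 5 µM (x axis) for each tested member of 20 gene lists (y axis, number tested in brackets), 1 point per gene, with a black bar at the median of each list, blue for lower and red for higher calls, and dotted lines at 2-fold. The G2/M list centres on -1.0 and has its highest member at 0.0, whereas the G1/S list has its median at 0.22 and spans -0.96 to 1.03.

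Histone genes and genes of cell cycle inhibition and senescence each held 4 lower calls. Of 17 histone genes on the array 8 were tested, and 4 fell (against 2.08% of all tested genes). All 8 had a negative difference without overlap (against 18.6%), and the median change was -1.01 with levels of 8.82, 9.7 and 8.65 at 0, 5 and 10 µM. H1-2, a linker histone, read 9.65, 9.75 and 9.87 at 5 µM and 7.84, 8.46 and 7.68 at 10 µM, a fall of 1.76 (SE 0.19, adjusted p = 0.00218) to near its vehicle mean of 8.2. H2BC4, a core histone, read 8.13, 7.83 and 7.91 against 6.72, 6.53 and 6.27, a fall of 1.45 (adjusted p = 0.00143). Histone genes share sequence, so probe sets may read more than 1 copy. Of 11 tested genes of cell cycle inhibition and senescence, 4 fell, against 2.08% of all tested genes. They were CDKN3, IGFBP3, CDKN1A and CDKN2D, of which CDKN1A and CDKN2D encode kinase inhibitors. IGFBP3 and CDKN2D passed the filter only through 5 µM, which favoured their fall. All 11 had a negative difference (against 51.0% of all tested genes), and the median was -0.76. CDKN1A (p21), the inhibitor induced by p53, read 9.8, 9.8 and 9.97 against 8.63, 9.02 and 8.44, a fall of 1.16 (SE 0.16, adjusted p = 0.00478) that left it above its vehicle mean of 8.32. CDKN3, a phosphatase of cyclin-dependent kinases, read 8.31, 8.4 and 8.63 against 6.14, 7.12 and 6.72, a fall of 1.78 (adjusted p = 0.00333) to below its vehicle mean of 7.6. IGFBP3, an insulin-like growth factor binding protein, read 6.85, 6.88 and 7.32 against 4.26, 2.29 and 2.63 and was at least 3.01-fold lower (adjusted p = 0.00734). Of 28 tested p53 target genes, 2 fell (against 2.08% of all tested genes, and 1 without replicate 3 at 10 µM or replicate 1 at 5 µM) and the median was -0.22. With the actin covariate, limma called 0 histone genes and 0 inhibitors (7 and 9 lower at an unadjusted p under 0.05), and the methods' t-test without it called 2 and 1.

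Enzymes that handle deoxycytidine and its analogues differed in direction. Of 19 tested, 1 fell, 1 rose (against 2.08% and 0.264% of all tested genes) and 12 had a positive difference. The gene that rose is TYMS, given above with the G1/S list, and the number higher was 0 without replicate 1 or 3 at 10 µM or replicate 3 at 5 µM and 2 without replicate 2 at 10 µM. CDA, the cytidine deaminase that inactivates 5-Aza, read 8.21, 7.96 and 8.85 at 5 µM and 5.83, 5.95 and 4.95 at 10 µM, with no overlap and a vehicle mean of 6.92 ± 0.33 (SD, n = 3 arrays). It fell by 2.76 (SE 0.32, adjusted p = 0.00265), and this call held without any 1 array. At 10 µM 1 of 3 arrays was below the floor, and with dim signals raised the fall was 2.57 (5.95-fold). DUT, the dUTPase that supplies the substrate of TYMS, chosen after its values were seen, read 10.91, 10.83 and 10.64 against 11.56, 11.56 and 11.68, a difference of 0.81 (adjusted p = 0.00434). Of 20 tested genes of DNA methylation and demethylation, 1 fell and 0 rose (against 2.08% and 0.264% of all tested genes), with a median of 0.09. DNMT1, the maintenance methyltransferase that 5-Aza traps, read 8.94, 8.93 and 8.77 against 9.2, 9.37 and 9.25, a difference of 0.39 (SE 0.1, adjusted p = 0.0321) under 2-fold. UHRF1, its partner at replicated DNA, read 9.31, 9.38 and 9.35 against 9.45, 9.41 and 9.49, which did not pass the test (adjusted p = 0.426). GADD45B, a stress gene linked to demethylation, was the member that fell, by 1.37 (adjusted p = 0.0199), and its call ended without replicate 2 or 3 at 5 µM (adjusted p up to 0.0815).

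Of 64 interferon-stimulated genes on the array 62 were tested, and 7 fell and 0 rose (against 2.08% and 0.264% of all tested genes). By adjusted p alone 20 were lower (against 8.92% of all tested genes), and 58 had a negative difference (against 51.0%). The median was -0.41 (range -1.52 to 0.45), with list levels of 9.54 at 0 µM, 10.94 at 5 µM and 10.4 at 10 µM, so that the list at 10 µM lay between the other groups. USP18, the protease that removes ISG15, read 9.72, 9.43 and 9.54 at 5 µM and 8.48, 7.86 and 7.78 at 10 µM, a fall of 1.52 (SE 0.23, adjusted p = 0.00568). OAS3, a sensor of double-stranded RNA, read 11.84, 11.76 and 11.81 against 10.76, 10.71 and 9.9, a fall of 1.34 (SE 0.24, adjusted p = 0.00978), although a second, dimmer OAS3 probe set differed by -0.06. The list count is fragile. It was 3 without replicate 3 at 10 µM and 4 without replicate 1 at 10 µM or any 1 array at 5 µM. With the actin covariate limma called 0 (7 lower and 4 higher at an unadjusted p under 0.05), while the methods' t-test without it called 1. Without replicates 2 and 3 at 10 µM, which leaves 1 array at that dose, the median change of the list was -0.59. Of 21 tested genes of antigen presentation, 1 fell (against 2.08% of all tested genes), PDIA3, a disulfide isomerase of the endoplasmic reticulum and of the peptide loading complex. It read 11.91, 11.91 and 12.14 against 10.91, 10.53 and 10.03, a fall of 1.5 (adjusted p = 0.0059). Other, dimmer PDIA3 probe sets differed by -0.51 and -0.38, and the call ended when the probe sets of each gene were averaged. Of 15 tested nucleic acid sensors and adaptors, limma and the methods' t-test each called 0. At an unadjusted limma p under 0.05, 2 were lower, against 2021 of all 11756 tested genes.

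Among chaperones of the endoplasmic reticulum, 2 of 20 fell (against 2.08% of all tested genes), and the median was -0.42. A negative difference was seen for 19 (against 51.0%), for 17 of them without overlap (against 18.6%). CRELD2, a gene of the unfolded protein response, read 11.03, 10.99 and 11.06 at 5 µM and 9.89, 9.88 and 9.66 at 10 µM, a fall of 1.22 (SE 0.12, adjusted p = 0.00145), and its vehicle mean was 9.37. PDIA3, given above with its dimmer probe sets, was the other. Of 32 tested genes of the integrated stress response 2 fell (against 2.08% of all tested genes), with a median of -0.09. Of these genes 0 were called without replicate 3 at 10 µM or without replicate 1 or 2 at 5 µM, and 1 without replicate 3 at 5 µM.

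Several genes that are methylated in colorectal tumours or imprinted fell. Of 44 of the former on the array, 16 were tested, 6 only through 5 µM, and 4 fell (against 2.08% of all tested genes), with a median of -0.41 and 9 of 16 negative (against 51.0% of all tested genes). HLTF, a remodelling helicase, read 6.9, 7.04 and 6.96 at 5 µM and 3.43, 1.0 and 3.46 at 10 µM, at least 2.92-fold lower (adjusted p = 0.00543). TAC1, which encodes substance P, read 8.2, 8.11 and 8.3 against 5.61, 4.85 and 5.11, a fall of 3.02 (SE 0.18, adjusted p = 0.000214), with a vehicle mean of 5.22. The 10 µM signal of TAC1 was below the floor on 2 of 3 arrays, and with dim signals raised the fall was 2.74 (6.7-fold). UCHL1, a ubiquitin hydrolase of neurons, read 8.01, 7.99 and 8.15 against 5.82, 5.42 and 4.96, a fall of 2.65 (SE 0.26, adjusted p = 0.00145), and stayed above its vehicle mean of 2.71, with 1 of 3 arrays at 10 µM below the floor. HLTF and UCHL1 passed the filter only through 5 µM, which favoured their fall. Of 16 imprinted genes tested 3 fell (against 2.08% of all tested genes), with a median of -0.29. INPP5F, an inositol phosphatase, read 9.87, 9.96 and 9.89 against 8.78, 8.85 and 8.84, a fall of 1.08 (SE 0.09, adjusted p = 0.000805). PEG10, a retrotransposon-derived imprinted gene, read 8.39, 8.63 and 8.51 against 6.63, 5.88 and 5.94, a fall of 2.36 (SE 0.51, adjusted p = 0.0187) that left it above its vehicle mean of 1.54, and its call ended without replicate 3 at 10 µM or any 1 array at 5 µM (adjusted p up to 0.0704). The list of imprinted genes had 1 call without replicate 3 at 10 µM or without replicate 1 or 3 at 5 µM, and 2 without replicate 2 at 5 µM.

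Genes of intestinal and other epithelia moved in small numbers. Of 22 tested genes of secretory gut cells, 2 fell and 20 had a negative difference (against 2.08% and 51.0% of all tested genes), with a median of -0.67. MUC2, the main mucin of goblet cells, read 7.79, 8.1 and 7.81 at 5 µM and 6.72, 5.67 and 6.8 at 10 µM, a fall of 1.5 (adjusted p = 0.0123) that was lost without replicate 2 at 5 µM (adjusted p = 0.0502). The secretory list had 0 calls without that array, 1 without replicate 3 at 10 µM or replicate 1 or 3 at 5 µM, and 4 without replicate 1 at 10 µM. Of 13 enterocyte genes tested 1 fell (against 2.08% of all tested genes), with a median of 0.04. KRT7, a keratin of simple epithelia, read 9.21, 8.9 and 9.21 against 7.21, 6.97 and 7.23, a fall of 1.97 (SE 0.15, adjusted p = 0.000527), whereas a second, dimmer probe set of the gene differed by 0.23, so its direction rests on 1 probe set. Of 24 tested mesenchymal genes 5 fell (against 2.08% of all tested genes), among them CAV1, the coat protein of caveolae, which read 8.69, 8.57 and 9.1 against 7.05, 7.84 and 7.08, a fall of 1.46 (adjusted p = 0.00736). That list had 3 calls without replicate 2 and 2 without replicate 3 at 5 µM. CYP2B6, a drug-metabolising cytochrome, read 9.33, 9.01 and 9.67 against 7.42, 6.66 and 6.68, a fall of 2.42 (SE 0.27, adjusted p = 0.0024).

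The genes that rose formed no larger group among the lists. FAM124A read 1.77, 3.52 and 4.29 at 5 µM and 5.58, 5.78 and 6.26 at 10 µM, at least 1.37-fold higher (adjusted p = 0.0171), with a vehicle mean of 5.29, and its call ended without replicate 3 at 10 µM (adjusted p = 0.067). ADORA1, an adenosine receptor, read 5.07, 3.68 and 4.8 against 6.06, 5.34 and 6.48, at least 1.46-fold higher (adjusted p = 0.0374). The call of ADORA1 was lost without any 1 of 7 arrays (each at 0 µM, replicates 1 and 3 at 10 µM, replicates 2 and 3 at 5 µM; adjusted p up to 0.128). SLC6A14, an amino acid transporter of gut epithelium, read 4.56, 4.43 and 4.28 against 6.02, 5.63 and 5.92, at least 1.36-fold higher (adjusted p = 0.00191). It lay at 4.44 in the vehicle cells, so it was above the floor at 10 µM alone, and only slightly. FJX1, the four-jointed box homologue, read 5.15, 5.62 and 5.49 against 6.64, 6.64 and 6.71, a rise of 1.24 (SE 0.2, adjusted p = 0.00755) to near its vehicle mean of 6.27, with 1 of 3 arrays at 5 µM below the floor. ZNF239, a zinc finger protein, read 8.79, 8.38 and 8.41 against 9.74, 9.52 and 9.83, a rise of 1.17 (adjusted p = 0.00401) from a level below the vehicle mean of 9.02. CCDC198 read 8.72, 8.46 and 8.58 against 9.84, 9.48 and 9.94, a rise of 1.17 (SE 0.19, adjusted p = 0.00703), against a vehicle mean of 9.98. The calls of SLC6A14, FJX1, ZNF239 and CCDC198 held without any 1 array, but 0 higher calls were left with the actin covariate. With dim signals raised to the floor, the calls of FAM124A, ADORA1 and SLC6A14 ended (changes of 0.46, 0.55 and 0.45). FAM124A, ADORA1 and SLC6A14 passed the filter only through 10 µM, which favoured their rise.

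Among lists with no call, ribosome biogenesis genes had 16 of 20 positive differences (51.0% of all tested genes had a negative one) and a median of 0.3. Of the 20, 10 were higher without overlap (against 17.3%) and 6 higher by adjusted p alone (against 6.93%). NOP58, a box C/D RNA-protein core factor, differed by 0.69 (SE 0.09, adjusted p = 0.00441). The limma fit called 0 of the 20 at 2-fold and the methods' t-test 0. At an unadjusted limma p under 0.05, 11 were higher, against 1796 of all 11756 tested genes. Of 11 tested WNT and stem cell genes, 5 were higher and 2 lower by adjusted p alone (against 6.93% and 8.92% of all tested genes). MYC read 10.71, 10.68 and 10.84 at 5 µM and 11.62, 11.61 and 11.43 at 10 µM, a difference of 0.81 (SE 0.13, adjusted p = 0.0065) that brought it nearer its vehicle mean of 11.94. CD44, a hyaluronan receptor, differed by 0.7 (adjusted p = 0.00441). Ribosomal proteins (38 tested, median 0.05), mitochondrial ribosomal proteins (44, median 0.02) and oxidative phosphorylation genes (34, median -0.11) had 0 calls by limma and 0 by the methods' t-test. At an unadjusted limma p under 0.05, 1, 1 and 8 were lower and 0, 4 and 3 higher. Over all 11756 tested genes 2021 were lower and 1796 higher at that p. GAPDH differed by -0.13 (SE 0.12, adjusted p = 0.487).

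For 64 of the lower genes another probe set lay above the floor, 80 probe sets in all, and 76 of these differed in the same direction (median -1.11). For 8 of the higher genes 11 other probe sets did, all 11 in the same direction (median 0.68). The genes were picked for their change on the same arrays, and a probe set counted only when above the floor at a dose. Both favoured the same direction. The share among genes that were not called was not worked out, so these counts are not separate evidence for the calls.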

How the data were processed

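The measurements were Affymetrix U133 Plus 2.0 arrays, 9 in all, of HT-29 cells given 0, 5 or 10 µM, in groups of 3 taken from the sample titles. The deposited values are log2 signals of 54675 probe sets. The submitters' processing notes name RMA and affy 1.14.2, but the values have a MAS 5.0 form, with antilogs in steps of 0.1 (minimum -3.32), and sorted values differ between arrays by up to 1.58, so the arrays had not been quantile normalized. Dim genes are therefore noisy. Probe sets with 1 gene (41091), several (1801), none (11721) and controls (62) were told apart by the platform's table, and 6 probe sets with a missing value were left out.

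A gene was tested when its signal reached the array median (5.07 to 5.52) on all 3 arrays of a dose. The test was limma 3.58.1 (R 4.3.3, lmFit and eBayes) with 1 mean per dose over the 9 arrays (6 residual degrees of freedom). Same-dose arrays correlated at 0.9663 to 0.989 across the tested genes. On simulated data of these 11756 genes, 88.1% of 2.5-fold and 95.5% of 4-fold changes were called, and 0.0173% of unchanged genes. Bounds ("at least") raised values below the array median to it. The precision is limited by 3 arrays per dose.

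Genes were named by rule: the 15 largest falls, the 10 largest rises, up to 4 called members of each of 44 lists (1207 of 1345 entries on the array) or, with none called, the 2 of lowest p, and some reference genes. The text prints part of these, and others are marked as chosen afterwards. The comparison, its lists and its tests were chosen with earlier results of these data known. Alternatives covered normalization, floor, probe set choice, fold rule, arrays left out, array weights, the methods' t-test, the actin covariate and the replicate block.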

Additional observations from a re-analysis of the deposited data

How the results depend on the processing

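The number of genes lower at 10 µM (245) and higher (31) kept within 1.5 times under quantile normalization, equal medians, other floors and probe sets per gene, with exceptions as follows. The methods' t-test, run on the deposited values with the filter used here and not that of the study, gave 101 and 13. The actin covariate gave 12 and 0 (893 and 595 at an unadjusted p under 0.05 by limma), array weights 492 and 145, and no fold threshold 1049 and 815. Without 10 µM replicates 2 and 3 the higher count was 65. Leaving out 1 array gave 138 to 343 lower and 12 to 96 higher genes. Similar totals did not always mean the same genes. Under quantile normalization 240 of the 245 lower and 29 of the 31 higher genes were called again. When dim genes were tested too, 135 and 14 of them were called again. When probe sets were averaged within genes, 162 and 14 were. Replicate numbers did not pair the samples (same-number correlations of deviations 0.14, 0.09 and -0.09), and with the replicate block 236 and 29 genes were called. KRT7 was 0.23 (adjusted p = 0.267) with probe sets ending in _x_at or _s_at left out, and GAPDH 0.03 with the actin covariate. The cause was not tested. For 52 named genes under 27 settings, 1232 of 1380 values kept their direction and side of the threshold, 129 lost the call, 17 gained one and 2 changed sign. With 3 arrays per dose, dim genes near the floor are the least certain.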
